A study of Mus musculus with 12 samples.

Results

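Chemokines are small secreted proteins that guide leukocyte movement by acting on G protein-coupled receptors. They were described here in 2 cell types sorted from mouse long bones with and without a growing human breast cancer: the endothelial cells of blood vessels, and osteoblasts, which build bone. The genes were all those with a symbol of the form Ccl, Cxcl, Cx3cl, Xcl, Ccr, Cxcr, Cx3cr, Xcr or Ackr followed by a number, other than Cxcl12, which gave 54 of the 19937 genes named on the array: 33 ligands and 21 receptors. The choice used the symbol and no measured value, although it was made with earlier results of these data known.

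The ligands fall into families by the spacing of cysteines near their start. Cxcl1, Cxcl2 and their relatives attract neutrophils through Cxcr2, Cxcl9 and Cxcl10 are induced by interferon and attract T and natural killer cells through Cxcr3, and Ccl2, Ccl7 and Ccl12 attract monocytes through Ccr2. The atypical receptors Ackr1 to Ackr4 bind chemokines without activating G proteins, and remove, transport or hold them. In bone marrow, chemokines made by stromal cells hold blood-forming cells in place and govern their release into the blood.

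All mice were female NOD-SCID, a strain that lacks functional B and T cells and so retains mainly innate immune cells. The 12 arrays form 4 groups of 3 biological replicates: endothelial cells of tumor-bearing mice, endothelial cells of tumor-free mice, osteoblasts of tumor-bearing mice and osteoblasts of tumor-free mice. The tumor came from an intracardiac injection of 200000 cells of MDA-MB-231 scp1833, a human breast cancer line selected for growth in bone, and was followed in the long bones for roughly 2 weeks; the sources used here do not say what tumor-free mice received. Cells were sorted as GFP-, TR119- and CD45-, with endothelial cells SCA1+ and CD31+, and osteoblasts SCA1-, CD31- and CD51+. CD45 is the pan-leukocyte surface protein, so the gate was set to leave leukocytes out. The sources used here give neither the age of the mice nor whether an array pools several of them, and the p-values below measure the spread between these arrays.

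The sorted types carried their own markers. The mean of 10 endothelial markers was 9.88 to 10.20 on endothelial arrays and 4.99 to 5.97 on osteoblast arrays (log2 expression), and the mean of 6 osteoblast markers was 5.50 to 6.10 on endothelial and 8.86 to 10.07 on osteoblast arrays. Leukocyte transcripts differed among osteoblast arrays. The mean of 8 pan-leukocyte genes was 5.39 to 5.77 on all 6 endothelial arrays, whereas it was 6.84, 6.51 and 5.38 in osteoblasts of tumor-bearing mice and 5.36, 8.04 and 7.42 in osteoblasts of tumor-free mice (replicates 1 to 3), and 11 monocyte and macrophage genes had means of 7.21, 6.67 and 4.94 against 4.98, 8.23 and 7.91. Ptprc, which encodes CD45, followed the same order at 7.03, 6.87 and 4.70 in osteoblasts of tumor-bearing mice and 4.92, 8.46 and 6.41 in those of tumor-free mice. Immediate early genes, which are switched on within minutes of stimulation or of handling, also varied: 11 of them averaged 9.67, 9.69 and 9.63 in endothelium of tumor-bearing mice against 9.63, 8.70 and 8.58 in that of tumor-free mice, and 9.72, 9.82 and 9.68 in osteoblasts of tumor-bearing mice against 9.11, 8.59 and 7.95 in those of tumor-free mice. Of the 8 pan-leukocyte genes, 3 were above the array median on all arrays of each endothelial group and of the osteoblasts of tumor-bearing mice, and 4 in those of tumor-free mice. The part of these marker genes in the chemokine differences was not tested beyond fits with a marker mean as a covariate, given beside some genes below. These fits were chosen after the values were seen. In osteoblasts the immediate early mean was higher on every array with tumor than on any without. A fit with it as a covariate therefore cannot separate it from the tumor there. In endothelial cells only replicate 1 of the tumor-free mice came near the values with tumor. In a sorted bulk sample, fewer cells of a type and less RNA per cell cannot be told apart.

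Of the 54 genes, 30 (20 ligands and 10 receptors) were bright enough to test, as were 12430 of all genes (62.3%): their value lay above the median of the array on at least 3 of the 12 arrays. The other 24 had log2 values of 2.64 to 6.29 and are given no test, and 19 of these were above the median on no array. The genes above the median on all 12 arrays numbered 16, namely the ligands Cxcl1, Cxcl2, Cxcl9, Cxcl10, Cxcl14, Cxcl16, Cxcl17, Ccl2, Ccl5 and Cx3cl1 and the receptors Cxcr4, Ccr7, Ccr10, Cx3cr1, Ackr2 and Ackr3. Among the dim genes were Cxcr2 and Ccr2, the receptors through which neutrophils and monocytes read the ligands above: Ccr2 lay between 2.84 and 3.58 on all arrays, and Cxcr2 between 2.74 and 3.57 on endothelial and between 2.76 and 4.62 on osteoblast arrays. Cxcr2 was highest on osteoblast replicate 1 of tumor-bearing mice and replicates 2 and 3 of tumor-free mice (4.62, 4.39 and 4.36), 3 of the arrays with raised leukocyte markers.

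**Figure D1:**
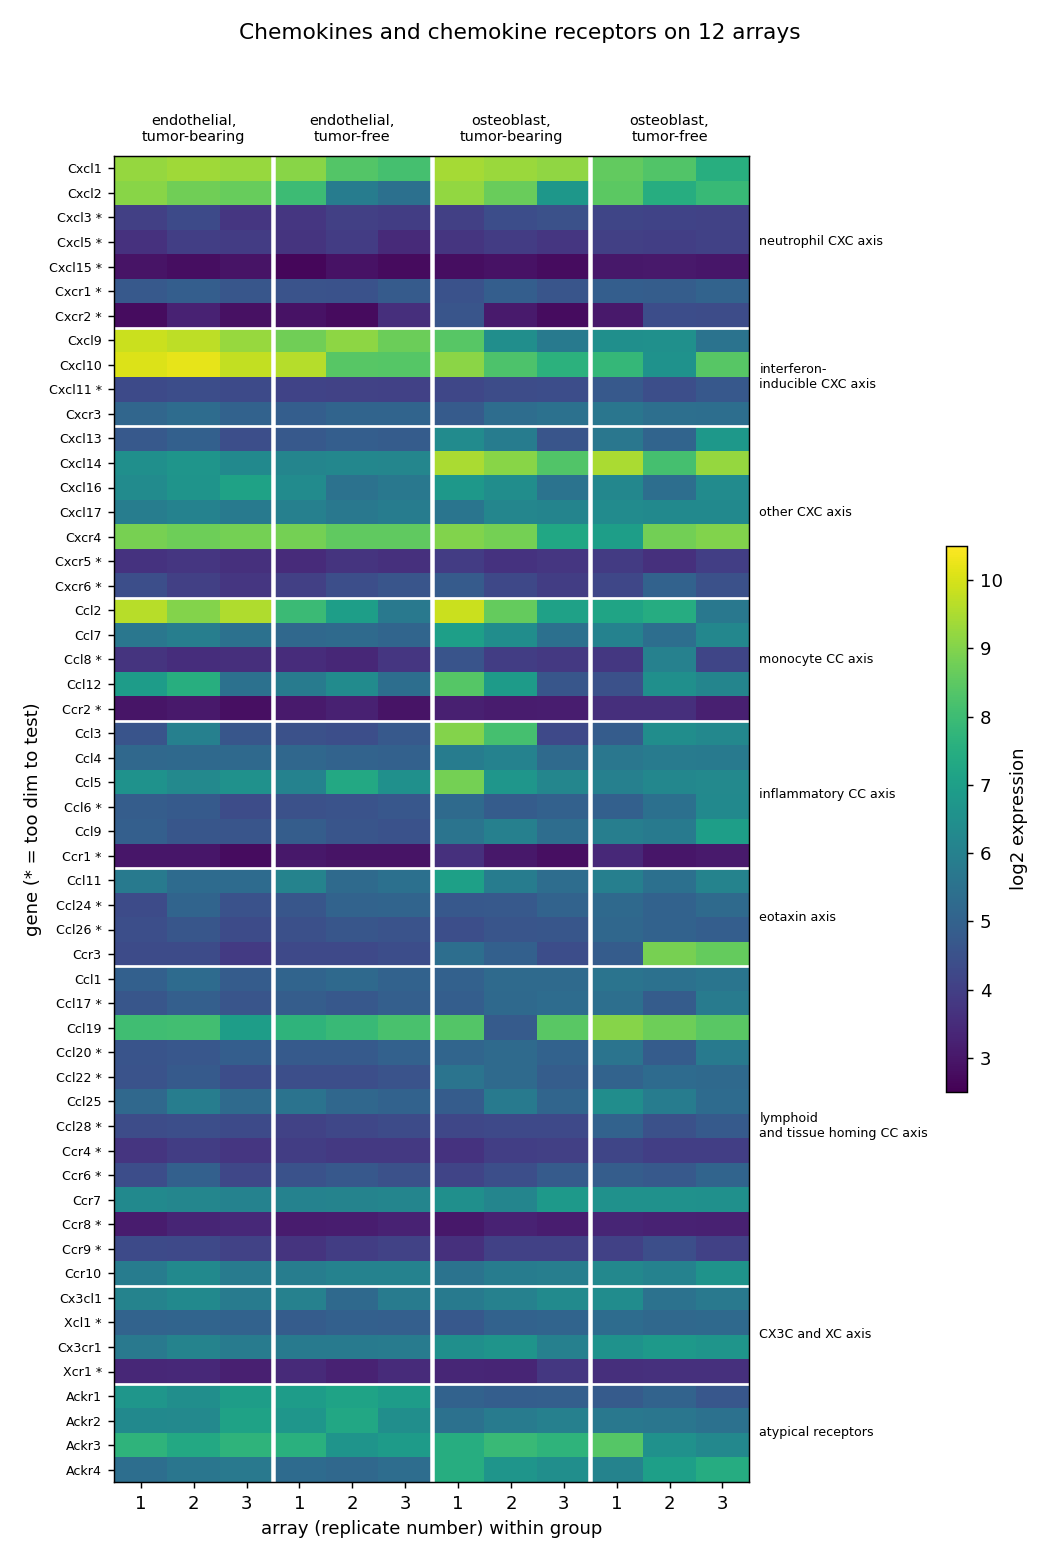
Log2 expression (colour) of the 54 chemokine and chemokine receptor genes (rows, grouped by ligand and receptor family) on the 12 arrays (columns, by group and replicate number); an asterisk marks the 24 genes too dim to test. Most receptors are dark on every array, Cxcl9 and Cxcl10 are brighter in endothelial cells, and Cxcl14 is brighter in osteoblasts.

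The promoters of 3 ligands that stood higher on every array of endothelial cells from tumor-bearing mice than on any from tumor-free mice are shown here, because they carry matches to motifs of factors that inflammatory and stress signals activate. Each is the 250 bases before the transcription start in RefSeq (build GRCm38.p6), written 5′ to 3′ on the strand of the gene, with matches in capitals. Cxcl1 lies at chr5:90890995-90891244 (+ strand), Cxcl2 at chr5:90903649-90903898 (+ strand) and Cxcl10 at chr5:92348890-92349139 (- strand).
Cxcl1: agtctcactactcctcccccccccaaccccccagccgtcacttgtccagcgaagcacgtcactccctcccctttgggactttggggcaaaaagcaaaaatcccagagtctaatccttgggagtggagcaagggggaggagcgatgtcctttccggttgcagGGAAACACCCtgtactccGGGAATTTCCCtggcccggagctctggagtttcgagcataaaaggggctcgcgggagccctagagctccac
Cxcl2: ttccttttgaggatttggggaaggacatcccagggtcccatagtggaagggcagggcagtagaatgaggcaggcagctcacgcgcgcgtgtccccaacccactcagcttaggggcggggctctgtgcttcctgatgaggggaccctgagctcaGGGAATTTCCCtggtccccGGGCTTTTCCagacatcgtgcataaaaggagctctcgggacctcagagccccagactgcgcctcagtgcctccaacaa
Cxcl10: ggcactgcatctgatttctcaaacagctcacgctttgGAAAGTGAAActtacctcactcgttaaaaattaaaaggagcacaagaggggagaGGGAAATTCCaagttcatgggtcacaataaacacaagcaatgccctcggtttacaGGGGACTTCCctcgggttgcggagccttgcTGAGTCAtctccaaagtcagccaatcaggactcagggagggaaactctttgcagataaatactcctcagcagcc

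The NF-kB type motif searched was GGGNNNTTCC on either strand. It matched 3 times in Cxcl1, at 89, 71 and 70 bases before the start, and 3 times in Cxcl2, at 97, 96 and 78 bases, where the matches 1 base apart overlap as a single capital run in each. In Cxcl10 it matched at 159 and 104 bases. Cxcl10 also holds the letters GAAANNGAAA, the core of an interferon-stimulated response element, at 213 bases and those of the AP-1 type motif TGANTCA, which Fos and Jun proteins bind, at 74 bases. The NF-kB type motif was found for 8 of the 40 chemokine and receptor genes with a promoter in the table (taking the first start listed for each gene), and in 4.6% of 27025 mouse promoters of the same length; the AP-1 type motif was found for 4 and in 6.87%, and the interferon type for 3 and in 3.04%. The other 5 genes with the NF-kB type letters were Ccl1, Ccl9, Ccl20, Ccr3 and Cxcl3, of which Ccl20 and Cxcl3 were too dim to test. Ccr6 and Ccl25 have a second start listed, and at that of Ccr6 the NF-kB type letters match at 81 bases. The 3 promoters shown were picked for their matches. Of the other genes higher on every endothelial array with tumor than on any without, Cxcl9 and Ackr4 held none of these motifs. Cxcl14 held only the interferon type, and Ccl2, Ccl4 and Ccl7 had no promoter in the table. A match describes the letters in the window, and binding was not measured.

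In osteoblasts, 1 of the 30 genes changed with the tumor: the neutrophil attractant Cxcl1 rose. Across all genes tested 4.59% were called in this comparison, 4.01% as higher, so 1 of 30 is near the background. Median differences were 0.10 for the 30 genes and 0 for all genes. In endothelial cells 0 of 30 passed, beside 3 of 12430 genes (0.0241%), yet 5 ligands had an unadjusted limma p under 0.05, all of them higher with the tumor: Ccl2, Cxcl2, Cxcl1, Cxcl10 and Cxcl16. Of all genes 6.93% had such a p, and 3.28% had one and were higher. The median difference in endothelial cells was 0.15 for the 30 genes and -0.02 for all genes. Both tumor comparisons use their own arrays and share only the estimate of the spread.

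Cxcl1 had log2 values of 9.42, 9.30 and 9.18 in osteoblasts of tumor-bearing mice, against 8.59, 8.33 and 7.51 in those of tumor-free mice. All 3 arrays with tumor lay above all 3 without. The difference was 1.16 ± 0.29 (log2, SE), or 2.23-fold (limma, adjusted p = 0.0478). In endothelial cells Cxcl1 stood at 9.24, 9.36 and 9.25 with tumor and 9.07, 8.36 and 8.13 without, again with no overlap, a difference of 0.76 ± 0.29 that did not pass (adjusted p = 0.605). The 6 tumor-bearing arrays lay between 9.18 and 9.42, and the 6 tumor-free arrays between 7.51 and 9.07. In both tumor-free groups the array with the highest Cxcl1 was also the one with the highest immediate early mean, and likewise for the lowest. The array with the highest immediate early mean was the highest of its group for 11 of 30 genes in osteoblasts and 13 of 30 in endothelial cells. Over all genes these shares were 35.7% and 32.2%. The osteoblast call was marginal. It held without replicate 1 (adjusted p = 0.0127) or replicate 2 (just under the threshold) of tumor-free osteoblasts or replicate 1 of tumor-free endothelial cells (0.0362), and was lost without any 1 of the other 9 arrays (adjusted p = 0.0572 to 0.14). With the immediate early mean as a covariate the difference was 1.06-fold (adjusted p = 0.9), and with the pan-leukocyte mean it was 2.08-fold (adjusted p = 0.0589). The first of these fits cannot separate the tumor from the immediate early mean, which did not overlap between the osteoblast groups.

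Cxcl2, the other neutrophil attractant bright enough to test, had 9.08, 8.78 and 8.65 in endothelium of tumor-bearing mice against 7.98, 5.86 and 5.44 in that of tumor-free mice. The groups did not overlap, and replicate 1 of the tumor-free mice, the array with the highest immediate early mean of its group, stood more than 2 log2 units above the other two. The difference was 2.41 ± 0.70, or 5.32-fold (unadjusted p = 0.00534, limma adjusted p = 0.44). Leaving out replicate 1 of both tumor-free groups, a setting chosen after the values were seen, gave 3.19 on the log2 scale (adjusted p = 0.0363), and with the immediate early mean as a covariate the difference was 1.38 (adjusted p = 0.931). In osteoblasts Cxcl2 was 9.21, 8.67 and 6.73 with tumor and 8.49, 7.48 and 7.89 without, which overlap (difference 0.26 ± 0.70). Its osteoblast difference minus its endothelial difference was -2.16 ± 0.98 (adjusted p = 0.314), with the lowest unadjusted p of the 30 genes for that quantity, 0.051. The related Cxcl3, Cxcl5 and Cxcl15 were dim on all 12 arrays, Cxcl5 between 3.45 and 4.04.

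Ccl2, the main attractant of monocytes, showed the largest endothelial tumor difference of the 30 genes. Its log2 values were 9.64, 9.0 and 9.54 with tumor against 7.95, 6.97 and 5.73 without, with no overlap. The difference was 2.51 ± 0.72, or 5.70-fold (unadjusted p = 0.00518, limma adjusted p = 0.437). In osteoblasts it was 9.85, 8.62 and 7.09 with tumor and 7.16, 7.44 and 5.70 without, so that the lowest array with tumor lay below 2 of those without. That difference was 1.75 ± 0.72, or 3.37-fold (adjusted p = 0.169). Ccl2 passed in neither cell type under any setting tried. With the immediate early mean as a covariate its osteoblast difference became -0.08 (adjusted p = 0.981), while the endothelial one was 1.44 (adjusted p = 0.931). In osteoblasts that mean cannot be told apart from the tumor.

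The other ligands of Ccr2 stood beside it at smaller differences. Ccl7 was 5.66, 5.93 and 5.48 in endothelium of tumor-bearing mice against 5.21, 5.26 and 5.10 in that of tumor-free mice, without overlap (0.50 ± 0.34, adjusted p = 0.911). In osteoblasts it was 7.01, 6.41 and 5.46 against 6.04, 5.40 and 6.20 (0.41 ± 0.34). Ccl12, a mouse ligand with no direct human counterpart, was 8.40, 6.88 and 4.65 in osteoblasts of tumor-bearing mice against 4.49, 6.48 and 6.14 in those of tumor-free mice. Among osteoblast arrays those with high Ccl12 were those with raised leukocyte markers, in both groups. In endothelial cells, where the pan-leukocyte mean was 5.39 to 5.77, Ccl12 was 6.92, 7.50 and 5.48 with tumor. It was 5.84, 6.36 and 5.38 there without tumor. Its tumor difference was 0.94 ± 0.87 in osteoblasts and 0.78 ± 0.87 in endothelial cells.

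**Figure D2:**
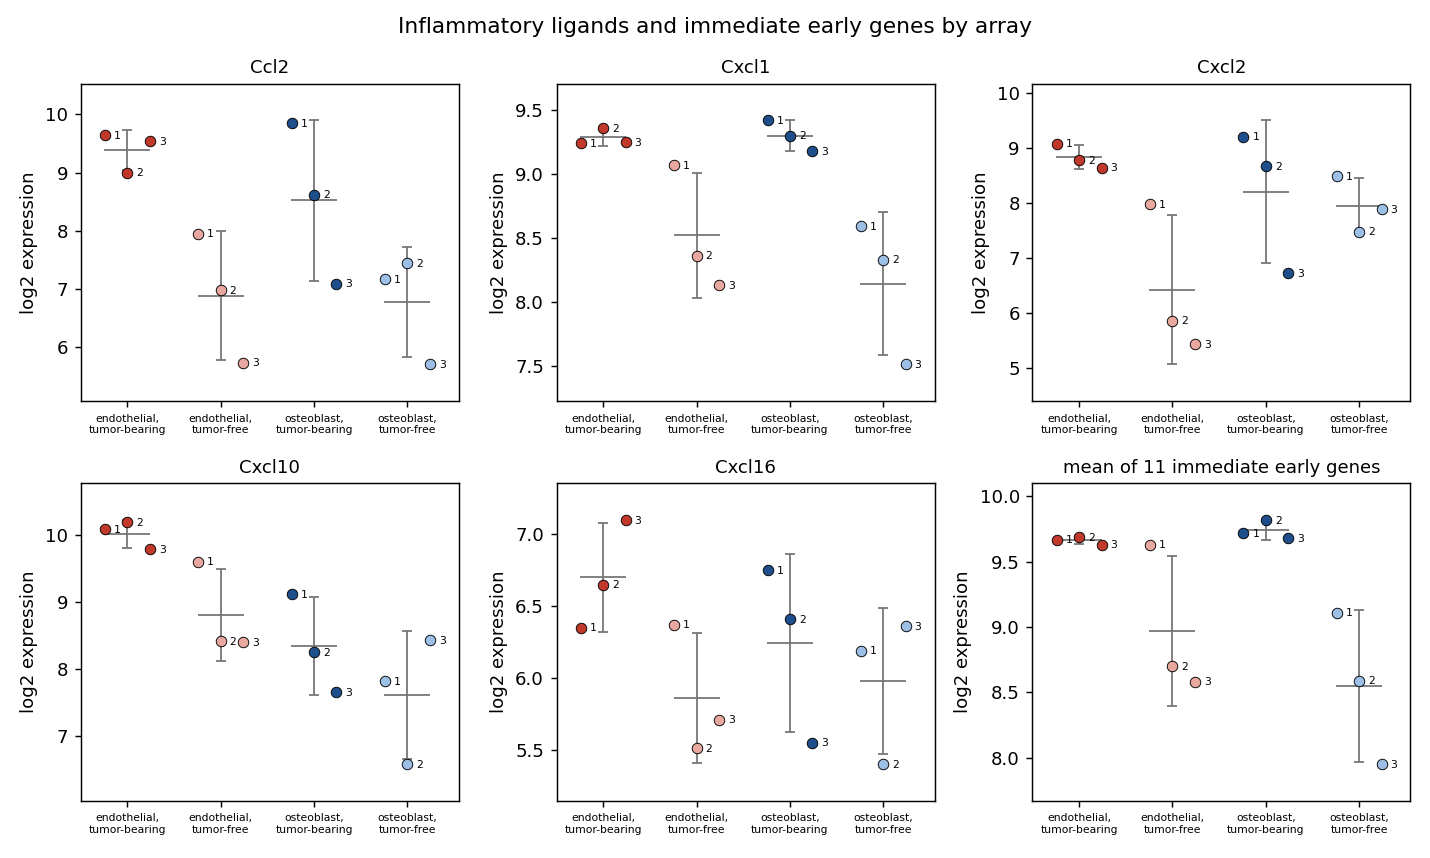
Log2 expression of Ccl2, Cxcl1, Cxcl2, Cxcl10 and Cxcl16, and the mean of 11 immediate early genes, on each array (points, with the replicate number), with the group mean and SD over 3 arrays (bars). Endothelial arrays of tumor-bearing mice lie close together and above the tumor-free ones for Ccl2, Cxcl1, Cxcl2 and Cxcl10, and close together for the immediate early mean, and replicate 1 of the tumor-free endothelial cells is the highest of its group in all 6 panels.

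The interferon-inducible ligands were high in endothelial cells with or without the tumor. Cxcl10 was 10.08, 10.19 and 9.78 in endothelium of tumor-bearing mice against 9.60, 8.41 and 8.40 in that of tumor-free mice, a difference of 1.21 ± 0.50, or 2.31-fold (adjusted p = 0.664). Cxcl9 was 9.86, 9.70 and 9.26 against 8.76, 9.15 and 8.71 (0.73 ± 0.54, adjusted p = 0.935). For both, every array with tumor exceeded every array without. The highest tumor-free Cxcl10 value was on replicate 1, which had the highest immediate early mean of its group, and with that mean as a covariate the endothelial difference of Cxcl10 was 1.00 (adjusted p = 0.931). In osteoblasts Cxcl10 was 9.11, 8.25 and 7.65 with tumor against 7.82, 6.58 and 8.43 without (0.73 ± 0.50), and Cxcl9 was 8.41, 6.45 and 5.77 against 6.49, 6.50 and 5.56 (0.70 ± 0.54), both overlapping. Their receptor Cxcr3 lay between 4.79 and 5.64 on all arrays, and the third ligand, Cxcl11, was dim throughout (4.04 to 4.72).

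Cxcl16, made as a membrane-anchored scavenger of oxidised lipid and shed as a ligand of Cxcr6, was 6.35, 6.65 and 7.10 in endothelium of tumor-bearing mice against 6.37, 5.51 and 5.71 in that of tumor-free mice. Replicate 1 of the tumor-free mice, the array with the highest immediate early mean of its group, fell among those with tumor. The difference was 0.84 ± 0.36 (unadjusted p = 0.0425, limma adjusted p = 0.697), and 0.64 with the immediate early mean as a covariate (adjusted p = 0.931). In osteoblasts it was 6.75, 6.41 and 5.55 against 6.19, 5.40 and 6.36 (0.26 ± 0.36), and its receptor Cxcr6 was dim on all arrays.

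Of the 30 genes, 9 had endothelial arrays with tumor that did not overlap those without, and in all 9 they were higher, beside 18.8% of all genes without overlap and 7.84% without overlap and higher. The 9 were Ccl2, Cxcl2, Cxcl1, Cxcl10, Ccl7, Cxcl9, Cxcl14, Ackr4 and Ccl4. Of these, Ccl4 lay under the array median on every endothelial array (4.97 to 5.24) and entered the test only through osteoblast arrays. Ackr4 lay near the median on endothelial arrays (5.21 to 5.73). In osteoblasts 4 of 30 did not overlap, 1 higher (Cxcl1) and 3 lower (Ccr10, Ccl1 and Cxcl17), beside 24.7% of all genes, 12.3% in each direction. These counts carry no test of their own. For the difference between the osteoblast and endothelial tumor differences, 0 of 30 genes passed in limma and 0 had an unadjusted p under 0.05, where 0.209% of all genes passed and 16.0% had such a p. No tumor difference of a chemokine gene was therefore shown to be unequal in the 2 cell types, at standard errors for that quantity of up to 1.39 for Ccl3.

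**Figure D3:**
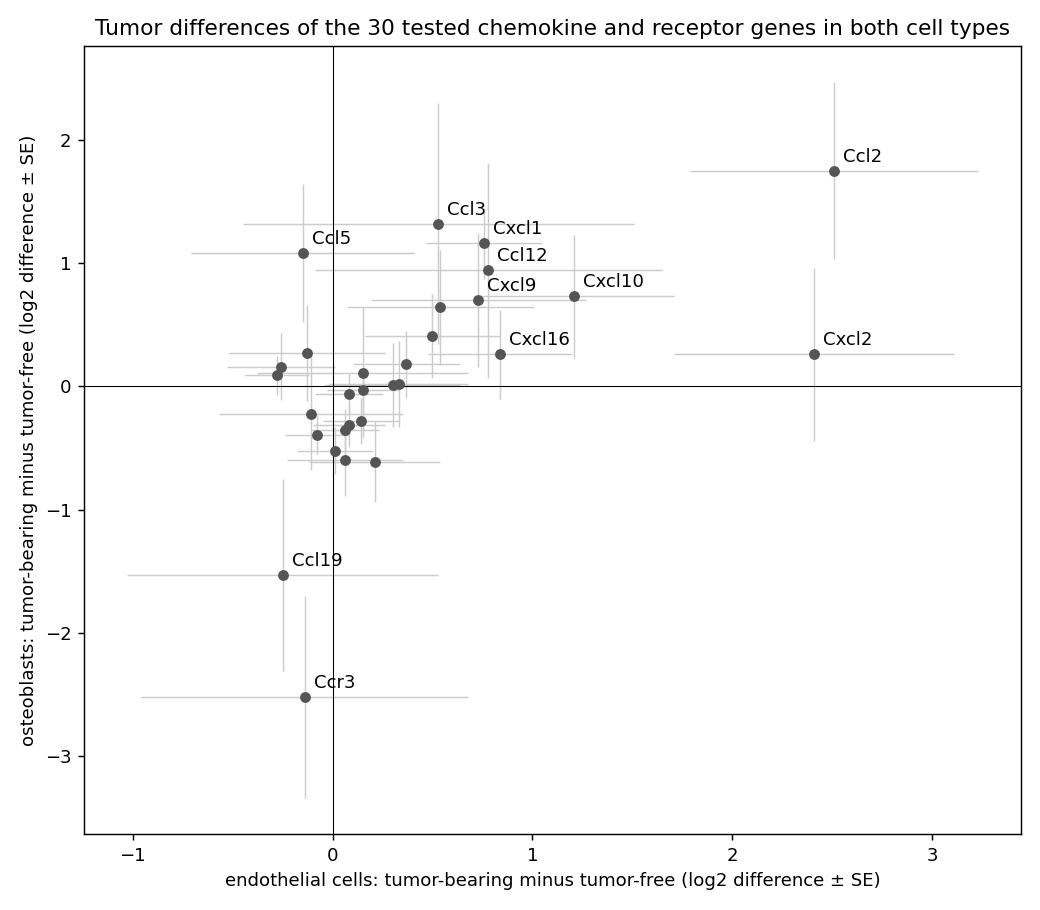
Tumor-bearing minus tumor-free log2 difference of each of the 30 tested genes in endothelial cells (x axis) and in osteoblasts (y axis), with standard errors as grey bars. Ccl2 and Cxcl2 lie farthest to the right, Ccr3 and Ccl19 lowest, and most genes lie near 0 on both axes.

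Among the genes that stood lower in osteoblasts of tumor-bearing mice, Ccr3, the eotaxin receptor of eosinophils, had the largest difference. Its log2 values were 5.39, 4.96 and 4.38 with tumor against 4.83, 8.86 and 8.62 without, and 3.85 to 4.39 on all endothelial arrays. Replicates 2 and 3 of the tumor-free mice, the arrays with the highest pan-leukocyte means, thus stood far above the other 10 arrays, and replicate 1 overlapped the tumor group. The difference was -2.52 ± 0.82 (adjusted p = 0.101). Without replicate 1 of the tumor-free osteoblasts it was -3.83 (adjusted p = 5.64e-05), and the osteoblast minus endothelial tumor difference was then -3.69 (adjusted p = 0.0012). Without replicate 2 or 3 of the tumor-free osteoblasts the Ccr3 difference was -1.81 (adjusted p = 0.195) or -1.93 (adjusted p = 0.241). It was -1.58 with the pan-leukocyte mean as a covariate (adjusted p = 0.0271) and -0.66 with the immediate early mean (adjusted p = 0.851). The latter mean cannot be told apart from the tumor in osteoblasts. The mean of 7 eosinophil genes, a list chosen after the values were seen, was 4.49 to 4.63 in osteoblasts of tumor-bearing mice. In those of tumor-free mice it was 4.89 to 5.07, and no higher on replicates 2 and 3 than on replicate 1. Only 3 of the 7 genes lay above the array median on any array. Of these, Siglecf was highest on tumor-free replicates 2 and 3 (6.18 and 6.13, against 5.69 to 5.83 on all other arrays), and Prg2 and Prg3 were not. Which cells carried Ccr3 was not tested.

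Ccr10, the receptor for skin and mucosal homing ligands, was 5.56, 5.85 and 5.93 in osteoblasts of tumor-bearing mice against 6.23, 6.06 and 6.62 in those of tumor-free mice (-0.52 ± 0.19, adjusted p = 0.136). Ccl1, a ligand of Ccr8, was 4.97, 5.28 and 5.25 against 5.57, 5.49 and 5.62 (-0.39 ± 0.16, adjusted p = 0.163). Neither passed, and both had an unadjusted p under 0.05, as 9.88% of all genes did on the lower side. Ccl1 lay above the array median on every tumor-free osteoblast array and on no osteoblast array with tumor. It met the filter for testing only with those tumor-free arrays, which limits its difference. Ccl19, a ligand of Ccr7, cannot be read as 1 value. Its 4 probe sets gave osteoblast differences of -1.53 for the one used, which rested on replicate 2 of the tumor-bearing mice at 4.81 where the other 2 were 8.36 and 8.45, and 0.71, -0.38 and 0.04 for the others. Ccl25, with 2 probe sets, is likewise uncertain (-0.61 for the one used and -0.11 for the other), and 3 probe sets listed for several symbols, a chemokine among them, were not used.

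Ccl3 and Ccl5, inflammatory CC ligands that macrophages produce, were high on some osteoblast arrays. Ccl3 was 9.03, 8.13 and 4.28 in osteoblasts of tumor-bearing mice against 4.82, 6.43 and 6.24 in those of tumor-free mice (1.32 ± 0.98, adjusted p = 0.423). Its low arrays in each group, replicate 3 with tumor and replicate 1 without, were those with the lowest leukocyte means. Without replicate 3 of the tumor-bearing mice its difference was 2.75 (adjusted p = 0.0332). Ccl5 was 8.82, 6.70 and 6.17 against 5.98, 6.20 and 6.26, so that replicate 1 of the tumor-bearing mice accounted for most of its difference of 1.08 ± 0.56 (adjusted p = 0.254). That array was the highest of its group for 17 of the 30 genes and the highest of all 6 osteoblast arrays for 12. The same counts were not made over all genes, so they are not read as particular to chemokines.

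The 30 genes spread more between replicate osteoblast arrays than other genes did. Their median SD was 0.527 in osteoblasts of tumor-bearing mice and 0.510 in those of tumor-free mice, where all tested genes had 0.219 and 0.328. In endothelial cells the medians were 0.234 with tumor and 0.175 without, close to the 0.189 and 0.173 of all genes. This spread enters every standard error above, since the fit shares 1 estimate over the 4 groups.

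**Figure D4:**
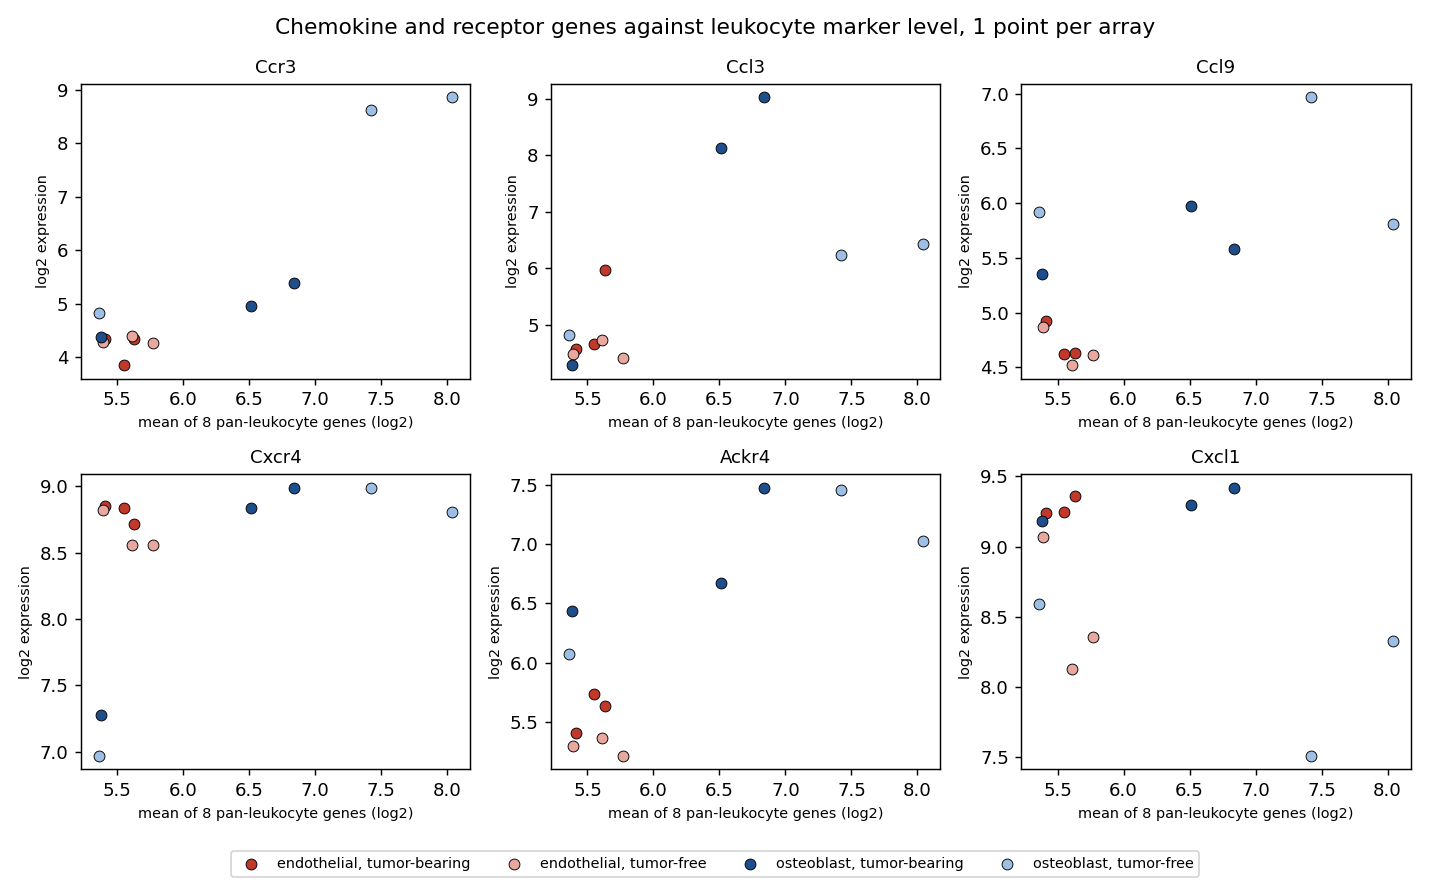
Log2 expression of Ccr3, Ccl3, Ccl9, Cxcr4, Ackr4 and Cxcl1 (y axes) against the mean of 8 pan-leukocyte genes (x axes), 1 point for each of the 12 arrays. The 2 tumor-free osteoblast arrays farthest to the right carry the high Ccr3 values, the 2 osteoblast arrays farthest to the left carry the low Cxcr4 values, and endothelial arrays are bunched at the left in all panels.

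Cxcr4, the receptor of Cxcl12 and the receptor by which blood-forming cells and many tumor cells home to marrow, did not differ detectably with the tumor. It was 8.85, 8.72 and 8.84 in endothelium of tumor-bearing mice against 8.82, 8.56 and 8.56 in that of tumor-free mice (0.15 ± 0.53). In osteoblasts it was 8.99, 8.84 and 7.28 with tumor against 6.97, 8.81 and 8.99 without (0.11 ± 0.53). The osteoblast arrays at 7.28 and 6.97 were those with pan-leukocyte means of 5.38 and 5.36, and the 4 arrays between 8.81 and 8.99 were those with raised leukocyte means. Ackr3, an atypical receptor that takes up Cxcl12, was 7.70, 7.33 and 7.70 in endothelium of tumor-bearing mice against 7.57, 6.64 and 6.90 in that of tumor-free mice (0.54 ± 0.47). In osteoblasts it was 7.47, 7.92 and 7.70 with tumor against 8.39, 6.56 and 6.23 without (0.64 ± 0.47, adjusted p = 0.414), and without replicate 1 of the tumor-free osteoblasts the difference was 1.30 (adjusted p = 0.0113). That array had the highest immediate early mean of its group, and with the immediate early mean as a covariate the Ackr3 difference turned to -0.90 (adjusted p = 0.509). In osteoblasts this covariate cannot be told apart from the tumor. Cx3cl1, the membrane-bound ligand fractalkine, lay between 5.23 and 6.38 on all arrays with tumor differences of 0.37 ± 0.27 in endothelial cells and 0.18 ± 0.27 in osteoblasts. Ccl6 was dim in both cell types, with its highest value, 6.29, in tumor-free osteoblast replicate 3.

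The 2 cell types differed for more of these genes than tumor and tumor-free mice did. In tumor-free mice 10 of 30 genes differed between endothelial cells and osteoblasts, 3 higher and 7 lower in endothelial cells, beside 31.0% of all genes tested (18.2% higher and 12.7% lower), so the share was near the background. In tumor-bearing mice 5 of 30 differed, 3 higher and 2 lower, beside 14.9% (8.13% higher and 6.79% lower). The median endothelial minus osteoblast difference of the 30 genes was -0.45 in tumor-free and -0.06 in tumor-bearing mice, and that of all genes was 0.03 and 0. These comparisons use the same arrays as the tumor comparisons above, so the values are given side by side. Some genes entered the test only through the cell type where they were high. Ackr1 lay above the array median only on the 6 endothelial arrays, and Ccr3, Ccl4 and Ccl9 only on osteoblast arrays (3, 5 and 5 of them). Their values in the other cell type lay under the median, which limits their calls and folds below. Ccl1 lay above the median on 5 arrays and met the filter only with those of tumor-free osteoblasts, which limits its call likewise.

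The atypical receptors split between the cell types. Ackr1, which venular endothelium uses to carry and present chemokines, was 6.71, 6.46 and 6.95 in endothelium of tumor-bearing mice against 5.00, 4.89 and 4.92 in their osteoblasts. In tumor-free mice it was 6.93, 7.13 and 6.91 against 4.80, 5.06 and 4.66. The lowest endothelial array, at 6.46, stood well above the highest osteoblast array, at 5.06. The differences were 1.77 ± 0.16, or 3.41-fold (limma, adjusted p = 2.94e-05), with tumor and 2.15 ± 0.16, or 4.42-fold (adjusted p = 7.31e-06), without. Ackr2, which degrades inflammatory CC ligands, was 6.69, 7.30 and 6.44 in endothelial cells and 5.69, 5.63 and 5.47 in osteoblasts of tumor-free mice (2.32-fold, adjusted p = 0.00828). In tumor-bearing mice it was 6.30, 6.25 and 7.10 against 5.47, 5.83 and 5.98 (1.73-fold, adjusted p = 0.08).

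Ackr4, which scavenges the ligands of Ccr7 and Ccr9, ran the other way. It was 5.29, 5.21 and 5.36 in endothelial cells against 6.07, 7.03 and 7.46 in osteoblasts of tumor-free mice, 2.96-fold lower in endothelial cells (adjusted p = 0.007). In tumor-bearing mice it was 5.40, 5.63 and 5.73 against 7.48, 6.67 and 6.44, or 2.43-fold lower (adjusted p = 0.0256). All osteoblast arrays lay above all endothelial arrays. Among osteoblast arrays the lower values, 6.07 and 6.44, were on those with the lowest leukocyte means, and with the pan-leukocyte mean as a covariate the tumor-free difference was 1.92-fold (adjusted p = 0.0253). The call in tumor-bearing mice was lost without osteoblast replicate 1 or 2 or any 1 endothelial array of that group (adjusted p = 0.0529 to 0.0923).

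Cxcl14, a ligand of epithelial and stromal cells whose receptor is not settled, had the largest difference among the genes that passed as lower in endothelial cells in both tumor-bearing and tumor-free mice. It was 6.49, 6.67 and 6.29 in endothelium of tumor-bearing mice against 9.47, 9.09 and 8.33 in their osteoblasts, or 5.56-fold lower (adjusted p = 0.000609). In tumor-free mice it was 6.13, 6.20 and 6.16 against 9.47, 8.13 and 9.24, or 6.88-fold lower (adjusted p = 0.000276). Its values ran in the order of the leukocyte means in osteoblasts of tumor-bearing mice and in the reverse order in those of tumor-free mice. It passed in all 24 other settings in both conditions. The tumor difference of Cxcl14 was 0.33 ± 0.35 in endothelial cells and 0.02 ± 0.35 in osteoblasts.

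Cxcl9 was higher in endothelial cells, at 6.64-fold in tumor-bearing mice (2.73 ± 0.54, adjusted p = 0.00567) and 6.47-fold in tumor-free mice (2.69 ± 0.54, adjusted p = 0.00504), on the values given above. The single osteoblast array near the endothelial ones was replicate 1 of the tumor-bearing mice at 8.41, and without it the fold in tumor-bearing mice was 11.3 (adjusted p = 0.000108). Cxcl10 was 3.19-fold higher in endothelium of tumor-bearing mice (adjusted p = 0.0462) and 2.29-fold in that of tumor-free mice (adjusted p = 0.0893). The first of these was lost for 7 of the 12 arrays when each was left out (highest adjusted p = 0.17, without osteoblast replicate 3 of the tumor-bearing mice).

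**Figure D5:**
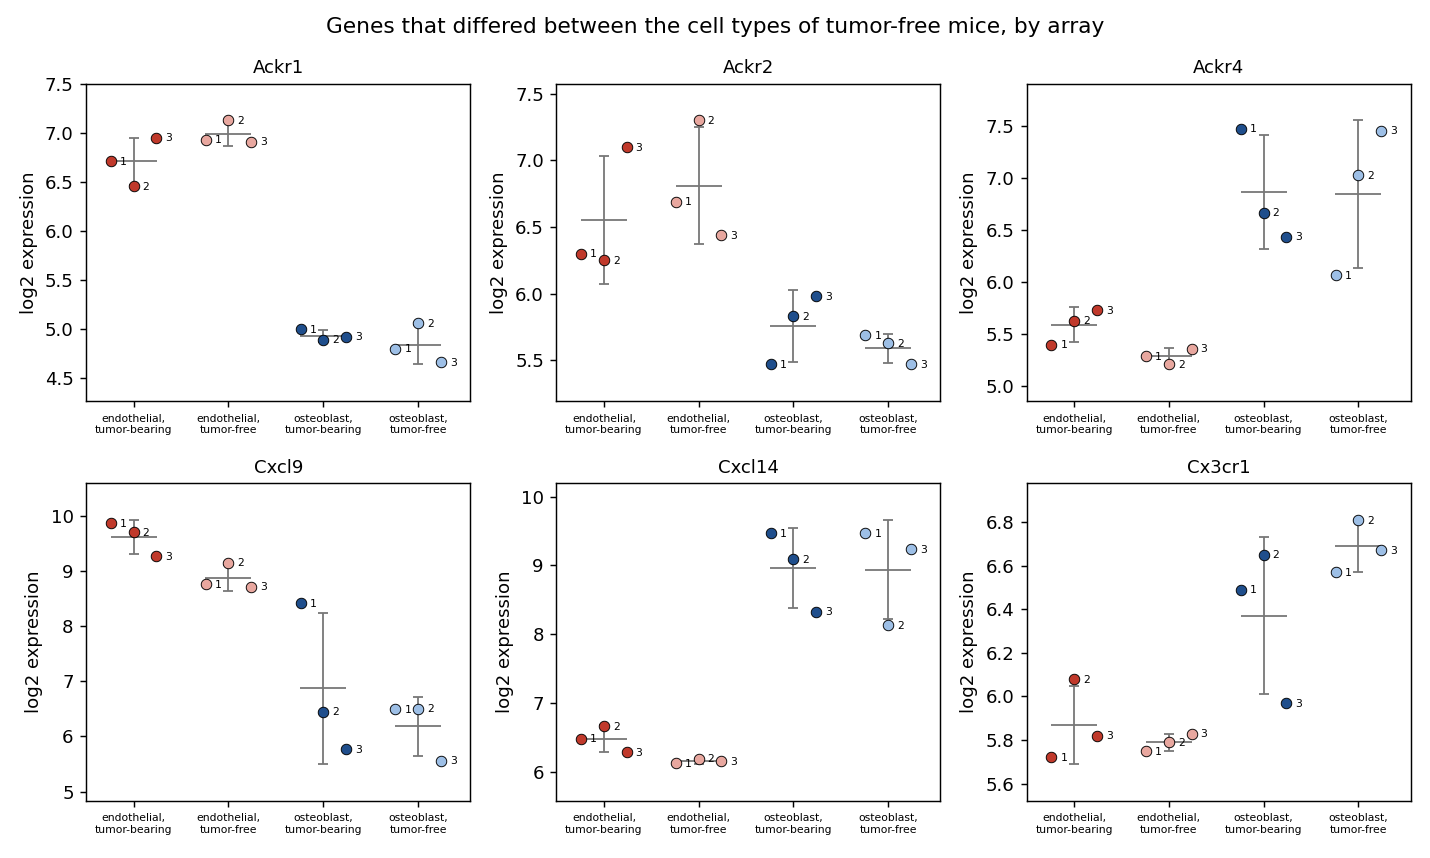
Log2 expression of Ackr1, Ackr2, Ackr4, Cxcl9, Cxcl14 and Cx3cr1 on each array (points, with the replicate number), with the group mean and SD over 3 arrays (bars). Ackr1, Ackr2 and Cxcl9 are higher in endothelial cells, with 1 osteoblast array approaching them for Cxcl9, and Ackr4, Cxcl14 and, on most arrays, Cx3cr1 are higher in osteoblasts.

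Several of the remaining genes lower in endothelial cells of tumor-free mice are ones that myeloid cells also express. Ccl9, a ligand of Ccr1 that osteoclasts and macrophages make in mice, was 4.87, 4.61 and 4.52 in endothelial cells against 5.92, 5.81 and 6.97 in osteoblasts, or 2.97-fold lower (adjusted p = 0.00291). It was also above every endothelial array on replicate 1 of the osteoblasts, where leukocyte means were lowest. In tumor-bearing mice it was 4.92, 4.63 and 4.62 against 5.58, 5.97 and 5.35, which did not overlap either (1.88-fold lower, adjusted p = 0.0578). Cx3cr1, the fractalkine receptor of monocytes and macrophages, was 5.75, 5.79 and 5.83 in endothelial cells against 6.57, 6.81 and 6.67 in osteoblasts of tumor-free mice, or 1.86-fold lower (adjusted p = 0.00545). In tumor-bearing mice it was 5.72, 6.08 and 5.82 against 6.49, 6.65 and 5.97 (adjusted p = 0.102). On tumor-free osteoblast replicate 1, with the lowest leukocyte mean of its group, Cx3cr1 was 6.57, above every endothelial array. In tumor-free mice Ccl9 passed in all 23 other settings it was tested in and Cx3cr1 in all 24, the pan-leukocyte covariate among them. Which cells carried these transcripts was not tested.

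Ccr3 was 8.71-fold lower in endothelial cells of tumor-free mice (adjusted p = 0.0176). That value rested on replicates 2 and 3 of the osteoblasts: it was 21.5-fold without replicate 1 (adjusted p = 2.89e-06), 5.32-fold without replicate 2 (0.0485) and 5.77-fold without replicate 3 (0.0541), and without endothelial replicate 2 the adjusted p was 0.0519. These replicates have the highest leukocyte means, and with the pan-leukocyte mean as a covariate Ccr3 was 2.47-fold lower (adjusted p = 0.0349). It was 5.53-fold lower with the immediate early mean (adjusted p = 0.0424), and the call was lost with only the groups compared in the fit (adjusted p = 0.0889). Ccl4 was 1.62-fold lower (adjusted p = 0.0179), a call lost without endothelial replicate 2 (0.054) or 3 (0.0623) and with the pan-leukocyte mean as a covariate (0.0935). Ccl1 was 1.37-fold lower (adjusted p = 0.0495) and passed only 2 times in 12 when single arrays were left out. In tumor-bearing mice none of these 3 passed.

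Other genes of chemokine signaling, a list of 42 names chosen with earlier results known, of which 32 were tested, moved in the same comparisons. In osteoblasts 2 of 32 rose with the tumor and 0 fell, near the background of 4.01% of all genes called as higher: Sdc4, a heparan sulfate proteoglycan that binds chemokines at the cell surface, and Ext1, an enzyme that builds heparan sulfate chains. Sdc4 was 8.45, 8.74 and 8.51 in osteoblasts of tumor-bearing mice against 7.39, 6.72 and 6.57 in those of tumor-free mice, 3.18-fold higher (adjusted p = 0.00542). It passed whichever 1 of the 12 arrays was left out, and with the immediate early mean as a covariate it was 2.18-fold (adjusted p = 0.267). That mean cannot be told apart from the tumor in osteoblasts. With only the osteoblast arrays in the fit the call was lost (adjusted p = 0.104). Ext1 was 7.98, 8.16 and 8.22 against 6.61, 7.71 and 6.68, 2.17-fold higher (adjusted p = 0.0476), and passed in 1 of those 12 cases. In endothelial cells 0 of 32 passed in limma, and 7 had an unadjusted p under 0.05, 1 of them higher and 6 lower with the tumor, beside 6.93% of all genes with such a p.

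Between the cell types, 15 of the 32 differed in tumor-free mice, 10 higher and 5 lower in endothelial cells, and 6 differed in tumor-bearing mice, 4 higher and 2 lower. The atypical receptor Gpr182, which marrow sinusoidal endothelium uses to take up chemokines, was 19.9-fold higher in endothelial cells of tumor-free mice (adjusted p = 1.06e-06) and 19.0-fold in those of tumor-bearing mice. On osteoblast arrays Gpr182 was 4.11 to 5.66, above the array median only on replicate 2 of tumor-free mice. It entered the test through the endothelial arrays, which limits these folds. The kinase Grk5, which phosphorylates activated receptors, was 5.97-fold higher, and Arrb1, the arrestin that turns them off and internalises them, was 5.71-fold higher, both in tumor-free mice. In tumor-bearing mice Grk5 was 3.13-fold higher (limma adjusted p = 0.00319) and Arrb1 3.61-fold (0.000176). Sdc4 was 2.26-fold lower in endothelial cells of tumor-free mice and 6.18-fold lower in those of tumor-bearing mice (limma adjusted p = 1.62e-05). Ccrl2, a receptor-like protein that presents chemerin, was 2.39-fold lower in tumor-free and 3.08-fold lower in tumor-bearing mice (limma adjusted p = 0.0146). Its tumor-free call held in 6 of 12 fits with 1 array left out. The counts of genes past the threshold were 31.0% and 14.9% over all genes in these comparisons, against 15 of 32 and 6 of 32 here.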

How the data were processed

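Sorted osteoblasts and endothelial cells were profiled on 1-colour microarrays. Total RNA was turned into cDNA, amplified by the SPIA method and biotin-labelled, per the labels' protocols. The authors deposited log2 expression for 34760 probe sets on each of 12 arrays (1.55 to 12.9, array medians 5.21 to 5.41), made with affy per the submitters' processing notes. The sources used here do not give its version, background correction or normalization. Signal over background is not known either, so that precision is limited by the number of arrays. Of 66 pairs of arrays 0 held identical values.

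Groups came from the sample titles. Gene names come from the annotation table of the array (21640 probe sets with 1 symbol, 1321 with several, 11799 not listed), and for a gene with several probe sets the one with the highest mean was used. Genes above the array median on at least 3 arrays were tested with limma 3.58.1 in R 4.3.3, with 1 mean per group over all 12 arrays (8 residual and 2.89 prior degrees of freedom), two-sided, adjusted by Benjamini-Hochberg over the 12430 genes tested, at a threshold of 0.05. A fold is 2 to the power of the log2 difference. The steps were tested on simulated data. Same-numbered arrays deviated from their group means with correlations of -0.26 to 0.11, so the numbers were not taken to pair the samples. Only the cell types of the same condition could share mice, and there the correlations were -0.05 to 0.09. Whether same-numbered arrays shared mice or handling was not tested.

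The members, marker and pathway lists and the rule for named genes were chosen with earlier results of these data known. That rule names genes past the threshold or with an unadjusted p under 0.05 in a tumor comparison, the largest called differences between cell types, the 10 with the highest mean and 18 fixed genes; others, among them Ccl3, Ccl12 and Cxcr3, were named after their values were seen. Promoters are from RefSeq (GRCm38.p6; 40 of 54 genes matched). Alternatives were a replicate block, quantile normalization, median centring, other filters, averaging a gene's probe sets, robust estimation with an intensity trend, a weight per group, only the groups compared and leaving out each array. Leaving out replicate 1 of both tumor-free groups, the 2 marker means as covariates and the eosinophil list were chosen after seeing the data.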

Additional observations from a re-analysis of the deposited data

How the results depend on the processing

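Of 1144 values of 48 named results under other settings, 962 kept their direction and their side of the threshold, 177 lost the call, 4 gained it and 1 reversed: Ccl2 in the osteoblast tumor comparison, at -0.08 with the immediate early mean as a covariate (the cause was not tested). The 48 are differences past the threshold and, for chemokine genes, tumor differences with an unadjusted limma p under 0.05. Results outside the 48 also changed sign with that covariate in osteoblasts, among them Ackr3 (0.64 to -0.90) and Cxcl2 (0.26 to -1.52). In the osteoblast tumor comparison the count of chemokine and receptor genes past the threshold, 1 as reported, was 0 with quantile normalization, with an intensity trend and robust estimation, with a weight per group, with only the groups compared and with the immediate early mean, 3 without replicate 1 of both tumor-free groups (Cxcl1, Ackr3 and Ccr3), and 0 to 3 with 1 array left out. With the pan-leukocyte mean it was 1, but the gene was Ccr3 in place of Cxcl1. In the endothelial tumor comparison (0 as reported) it was 1, Cxcl2, without replicate 1 of both tumor-free groups, and 0 with any 1 array left out. For the comparison of tumor differences (0) it was 1, Ccr3, in that setting and 0 to 1 with 1 array left out. Between cell types of tumor-free mice it was 10 as reported, 18 with no filter and 6 with the 70th percentile filter, where other numbers of genes are tested, and 7 to 12 with 1 array left out; of tumor-bearing mice it was 5 as reported and 3 to 8 with 1 array left out.

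The replicate number as a block gave 1 gene in osteoblasts, 0 in endothelial cells, 0 for the differences, 10 between cell types of tumor-free and 4 of tumor-bearing mice. It moved the count over all genes in osteoblasts to 349, against 570 without the block. Whether arrays of different groups share more than a number is not known. Counts over all genes in osteoblasts were also 955 with no filter, 130 with a weight per group, 0 with only the groups compared, 1032 with the pan-leukocyte mean and 0 with the immediate early mean. Median centring moved the median of all genes by 0.15 in the cell type comparison of tumor-free mice and quantile normalization by -0.11, and the split of higher against lower calls was 2852 to 785 and 1645 to 1545, against 2266 to 1584 as reported. In osteoblasts quantile normalization gave 368 to 184, against 499 to 71. The 3 arrays a group and an unknown background limit what dim genes can show.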
